A study of Homo sapiens with 6 samples.

Results

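The replication-dependent histone genes encode the core histones H2A, H2B, H3 and H4 and the linker histone H1 that package newly made DNA. They were taken from the gene count table by symbol (H1-1 to H1-6, and every gene named H2AC, H2BC, H3C or H4C with a number), and gave 66 of the 60676 genes listed. The rule itself used no measured value, but it was chosen with earlier results of these data known. RNA was taken from TC71 cells, a line derived from a Ewing sarcoma, in which a lentiviral vector carried a doxycycline (Dox)-inducible shRNA. Dox at 0.5 µg/ml was given to every culture for 3 days, so both groups carried a vector and received the drug. The 3 shNTC+Dox libraries held a non-targeting shRNA and the 3 shEHD1+Dox libraries an shRNA against EHD1, an ATPase of endosomal membrane traffic. The lines were puromycin-selected pools that also express GFP from the vector, and which of the study's EHD1 shRNAs was present is not given in the sources used here. The comparison asked which transcripts differ between these lines when EHD1 is depleted. The libraries compared include no culture without Dox and no rescue of EHD1. Loss of EHD1 thus cannot be told apart from other effects of the shRNA or from differences between the lines.

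Replication-dependent histone genes are transcribed as the cell enters S phase, from a few dense clusters that hold many near-identical copies. Their mRNAs are the only common animal mRNAs that end in a stem-loop in place of a poly(A) tail. The stem-loop binding protein SLBP and the U7 small nuclear RNA guide the cut behind that stem-loop, and the same stem-loop marks the mRNA for decay when DNA synthesis stops. Some of these genes can also end at a downstream poly(A) site, a form described in differentiating and non-cycling cells, whereas the variant histones (H2AZ1, H3-3A and the like) are made as ordinary tailed mRNAs throughout the cycle. The kit used for these libraries selects RNA by its poly(A) tail, so most mature stem-loop histone mRNA is lost before sequencing. A count per gene cannot tell the stem-loop form from the tailed form.

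The stem-loop was looked for in the 150 bases after the stop codon of each gene, because it defines how these mRNAs end. It was found in 61 of the 66 genes (92.4%) and in 6 of 19980 other protein-coding genes (0.03%), all 6 of them histone genes as well (H2AC25, H2AX, H2BC26, H3-4, H3-7 and H4C16). It lay 22 to 67 bases after the stop codon, with a median of 35. The search accepted only GG, then pyrimidines and a T, a loop that starts with TT, and a second arm that pairs base by base. Only 5 forms of the 16 bases occurred under this pattern, which itself leaves few bases free. They are shown 5′ to 3′ as DNA, with the 2 pairing arms of the stem in capitals and the loop in lower case.
H2AC6, H1-2, H2BC15 and 35 other genes: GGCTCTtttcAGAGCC
H2BC12, H2BC5, H2BC4 and 6 other genes: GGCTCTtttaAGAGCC
H4C1 and 8 other H4 genes: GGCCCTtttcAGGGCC
H4C9, H4C12, H4C14 and H4C15: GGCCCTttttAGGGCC
H2AC20: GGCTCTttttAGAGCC
On hg38 the stem-loop of H2AC6 lay at chr6:26124669-26124684 on the plus strand and that of H2BC12 at chr6:27146366-27146381 on the minus strand. That of H4C9 was at chr6:27139654-27139669 on the plus strand. The H4 genes had 2 forms that no other type shared. No stem-loop of this shape was found for H2AC11, H2AC15, H2BC10, H3C6 and H4C13 in this window.

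The 6 libraries held between 22711235 and 30582187 counts. EHD1 itself fell, from 27.1, 28 and 26.3 CPM (a library's counts scaled to a fixed total) in shNTC+Dox to 7.54, 7.14 and 9.36 in shEHD1+Dox (log2 fold change -1.76 ± 0.12 SE, edgeR adjusted p = 1.35e-04). Genes of Ewing sarcoma cells such as NR0B1 were present in each library (11 to 609 CPM over 7 genes), and 3 leukocyte genes stayed at or under 0.403 CPM. Among the 7, STEAP1 and PAX7 fell by 0.43 and 0.38 on the log2 scale (edgeR adjusted p = 0.00443 and 0.0107). CD99 rose by 0.33 (edgeR adjusted p = 0.0293), and the others were not called. Of markers of epithelium and fibroblasts, 3 genes each, EPCAM stayed at or under 0.19 CPM while KRT18 reached 30.7 and COL1A1 22.6, and DCN fell by 1.01 on the log2 scale (edgeR adjusted p = 0.00778). The part of such cells in the histone values was not tested. Replicates 1 and 2 of shNTC+Dox were closest to each other, and replicate 3 stood further from both. In shEHD1+Dox it was replicate 2 that stood further from the others. Nothing in the labels says whether replicates were separate cultures, so the p-values measure the spread between these libraries, which may be technical.

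Few of the 66 genes were measured well. No count was seen for 16 of them in any library, where 3 counts would have been 0.0981 to 0.132 CPM, and 27 more had at most 14 counts in a library and did not pass the filter of 10 counts in 3 libraries. The other 23 were tested. Read counts were concentrated on 4 genes, H2AC6, H2BC12, H2BC5 and H1-2, which held 71.9% of all counts of the 66 (64.7% to 74.3% by library). All members together took 111, 120 and 102 CPM in the shNTC+Dox libraries. The variant histones, a list of 12 genes described as having tailed mRNAs, took 2175, 2216 and 2372 CPM in the same libraries. That list includes H2AX, which also holds the stem-loop, and H2AJ, which had no count.

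Levels of different genes were compared per kilobase of annotated exon (RPKM). H2BC12 led in both groups, at 47.5 ± 2.3 RPKM in the controls and 73.6 ± 3.75 after knockdown (SD, n = 3). H2AC6, H2BC5, H1-2 and H4C9 followed at 17.1 ± 4.26, 15 ± 3, 14 ± 0.715 and 15.3 ± 1.84 RPKM in shNTC+Dox. These 4 levels did not differ beyond their spread. In shEHD1+Dox the same 4 were at 38.7 ± 5.53, 37.8 ± 2.21, 28.4 ± 5.44 and 23.6 ± 1.42 RPKM, and the ranges of H1-2 and H4C9 overlapped. The next gene, H2AC11, was at 6.02 ± 1.39 RPKM in shNTC+Dox, below every library of the 5 genes above it. The highest H3 gene was H3C10, at 2.5 ± 0.491 RPKM in shNTC+Dox, and the second H1 gene, H1-4, had 52 counts over all libraries against 2549 for H1-2. H2AC6 is divided here by 1668 bases of exon and H2BC12 by 495, since the annotation of H2AC6 includes a spliced longer form, so the rank of a gene depends on which of its forms were present. The variant histones H2AZ1 and H3-3A had mean levels of 258 and 99.4 RPKM over the 6 libraries, above the 60.6 of H2BC12.

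**Figure D1:**
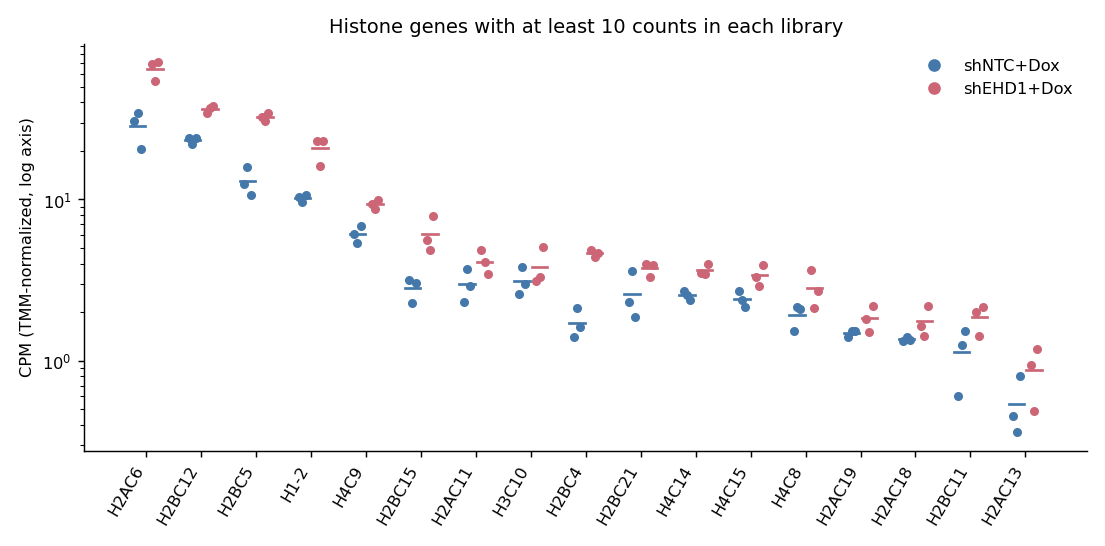
CPM (log axis, normalized by TMM) of the 17 histone genes with at least 10 counts in each library, with 1 point per library and a line at each group mean (shNTC+Dox blue, shEHD1+Dox red, n = 3 each). H2AC6, H2BC12, H2BC5 and H1-2 sit above the rest, and their shEHD1+Dox points lie above all their shNTC+Dox points.

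Summed histone counts were higher after EHD1 knockdown, and the best measured genes rose. The sum over the 66 genes was 214, 187 and 226 CPM in shEHD1+Dox, and no library reached down to the 102 to 120 CPM of shNTC+Dox (mean 209 ± 20.1 against 111 ± 8.91, SD, a ratio of 1.88). Of the 23 genes tested, 7 rose at an adjusted p under 0.05 and none fell. The 7 were H1-2, H2AC6, H2BC4, H2BC5, H2BC12, H2BC15 and H4C9. Among all 16785 genes tested, 8.59% rose and 8.75% fell by the same rule. A rise of at least 2-fold at that adjusted p was seen for 5 of the 23 (H1-2, H2AC6, H2BC4, H2BC5 and H2BC15), compared with 1.08% of all genes. That number was 3 when replicate 2 of shNTC+Dox or replicate 3 of shEHD1+Dox was left out.

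The fold change was above 0 for all 23 genes that passed the filter, with a median log2 fold change of 0.63 (0.30 to 1.43), where the median over all genes tested was 0.00. Every shEHD1+Dox library lay above every shNTC+Dox library for 12 of the 23, against 19.9% of all genes tested, and for none of the 23 was the order the reverse. The 12 count near-identical copies apart: H3C14 with H3C15, H4C14 with H4C15, and H2AC18, whose copy H2AC19 overlapped between the groups. With members that share any stretch of the read length summed, H2AC15 with H2AC17 and H3C12 changed by -0.20 ± 0.55 SE on the log2 scale. H4C11 with H4C12 changed by -0.10 ± 0.42. Among the genes too low to test, H2AC20 had 0.304, 0.361 and 0.403 CPM in the controls and 0.14, 0.204 and 0.258 after knockdown, the reverse order, from 4 to 10 counts per library. H2AC21 and H3C1, with 0 to 7 counts per library, were higher in each knockdown library. Of the 23, H3C14 and H3C15 passed only through their counts in shEHD1+Dox. Restricting to the 17 genes with 10 counts in each library left the 7 calls, the median of 0.63 and 10 genes whose groups did not overlap. H2AC18, H4C14 and H4C15 were among these 10. The 43 genes under the filter summed to 3.16 ± 0.418 CPM in shNTC+Dox and 3.07 ± 0.225 in shEHD1+Dox, a ratio of 0.97. More cells that express a gene and more RNA of it per cell cannot be told apart in these bulk libraries.

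**Figure D2:**
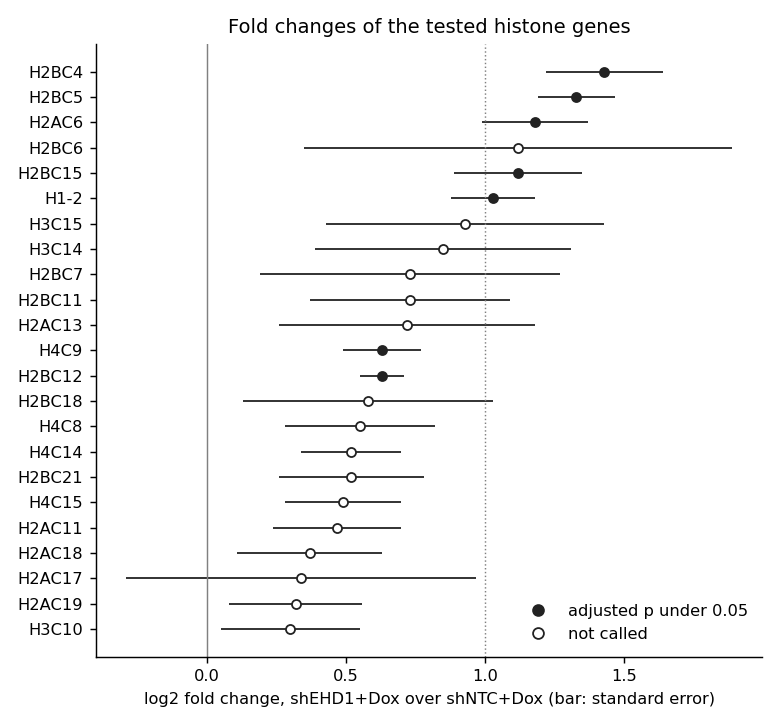
Log2 fold change of shEHD1+Dox over shNTC+Dox for the 23 tested histone genes, with standard errors from edgeR, filled where the adjusted p was under 0.05; the dotted line marks 2-fold. All points lie to the right of 0, from 0.30 for H3C10 to 1.43 for H2BC4, and the genes that were called are among those with the smallest standard errors.

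H2B, which pairs with H2A on the outside of the nucleosome, supplied the largest share of counts (41.9%) and 4 of the 7 called genes. H2BC5 had 12.4, 15.8 and 10.7 CPM in shNTC+Dox against 32.6, 30.7 and 34.5 in shEHD1+Dox. Every knockdown library was well above the highest control (log2 fold change 1.33 ± 0.14 SE, edgeR adjusted p = 6.56e-04). H2BC12 went from 24.1, 22.2 and 24.2 CPM to 34.3, 37.2 and 37.8. Its rise was smaller, at 0.63 ± 0.08 on the log2 scale, and its standard error was the smallest of the 23 genes (adjusted p = 0.00178 by edgeR). H2BC4 had 1.4, 2.13 and 1.61 CPM in shNTC+Dox against 4.88, 4.37 and 4.68 in shEHD1+Dox, the highest fold change of the 23 genes (1.43 ± 0.21, edgeR adjusted p = 0.00318). H2BC15 was at 3.15, 2.27 and 3.04 CPM in the controls and 5.58, 4.86 and 7.91 in the knockdown libraries, with replicate 3 the highest (1.12 ± 0.23, edgeR adjusted p = 0.0136). Without that library its adjusted p was 0.0596.

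The other H2B genes tested did not pass. H2BC21, on chromosome 1, had 2.32, 3.61 and 1.88 CPM in shNTC+Dox against 4, 3.31 and 3.9 in shEHD1+Dox, where the highest control library was above the lowest knockdown library (0.52 ± 0.26, edgeR adjusted p = 0.205). H2BC11 overlapped between the groups too, at 0.607, 1.26 and 1.52 CPM and then 2, 1.43 and 2.16 (edgeR adjusted p = 0.195). H2BC6, H2BC7 and H2BC18 had 73 to 110 counts in all, and H2BC6 had 0 counts in shNTC+Dox replicate 3.

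Of the H2A genes 1 rose, H2AC6. It had the most counts of all members, 7702 over the 6 libraries. Its levels were 30.6, 34.3 and 20.6 CPM in the controls, then 69, 54 and 70.8 after knockdown. Replicate 3 was the lowest of the controls and replicate 2 the lowest of the knockdown libraries, and the groups did not overlap (log2 fold change 1.18 ± 0.19 SE, edgeR adjusted p = 0.00648). H2AC11, the second H2A gene by level, was at 2.32, 3.68 and 2.91 CPM and then at 4.84, 4.08 and 3.45, which overlap (0.47 ± 0.23, edgeR adjusted p = 0.193). H2AC18 and H2AC19 are copies that share nearly all of their sequence and were summed for the test. The sum was 72, 81 and 64 counts in shNTC+Dox against 99, 72 and 136 in shEHD1+Dox (0.34 ± 0.21, edgeR adjusted p = 0.287). H2AC13 and H2AC17, with 116 and 64 counts in all, were not called either.

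H1-2, a linker histone that binds where DNA enters and leaves the nucleosome, held nearly all H1 counts. It had 10.4, 9.63 and 10.6 CPM in shNTC+Dox against 23, 16.2 and 23.2 in shEHD1+Dox. The controls were close together, while replicate 2 of the knockdown libraries was well below the other two (log2 fold change 1.03 ± 0.15 SE, edgeR adjusted p = 0.00293). H1-1, H1-3 and H1-5 had no count, and H1-6, a testis-type H1, had 5.

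H4, which with H3 forms the tetramer at the core of the nucleosome, was represented mainly by H4C9. It had 6.07, 5.34 and 6.8 CPM in shNTC+Dox against 9.37, 8.78 and 9.91 in shEHD1+Dox, with no overlap (log2 fold change 0.63 ± 0.14 SE, edgeR adjusted p = 0.0198). Its adjusted p rose to between 0.059 and 0.0853 when replicate 1 or 2 of shNTC+Dox or replicate 1 or 3 of shEHD1+Dox was left out. H4C14 and H4C15, identical over every stretch of the read length, summed to 142, 137 and 101 counts and then 194, 156 and 246. Their libraries were sequenced to different depths, and the fitted change of the sum was 0.51 ± 0.16 (edgeR adjusted p = 0.0568). H4C11 and H4C12, another pair of copies, had 11, 10 and 9 counts in shNTC+Dox against 13, 7 and 11 in shEHD1+Dox (-0.10 ± 0.42, edgeR adjusted p = 0.898). H4C8 had 1.52, 2.16 and 2.1 CPM and then 3.65, 2.12 and 2.71, which overlap (edgeR adjusted p = 0.189).

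H3 had the lowest summed CPM of the core histones and no called gene, and DESeq2 called none either. In edgeR no single H3 gene had an unadjusted p under 0.05, while the sum of the copies H3C14 and H3C15 had one of 0.0474. H3C10 was at 2.58, 3.79 and 3 CPM in shNTC+Dox against 3.12, 3.31 and 5.07 in shEHD1+Dox. The groups overlapped, and replicate 3 of shEHD1+Dox was alone above the highest control (log2 fold change 0.30 ± 0.25 SE, edgeR adjusted p = 0.456). The copies H3C14 and H3C15 summed to 13, 18 and 10 counts and then to 23, 36 and 23 (0.90 ± 0.39, edgeR adjusted p = 0.149 for the sum). H3C4 had 10 counts in all and shares its sequence with an unnamed annotated gene (ENSG00000282988).

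Summed by type, H2A went from 35.9 ± 6.89 to 74.2 ± 9.98 CPM (SD, n = 3), a ratio of 2.07. The ratio was 2.02 for H1 (10.5 ± 0.499 to 21.2 ± 3.96) and 1.90 for H2B (46.4 ± 2.64 to 88.1 ± 5.22). The ratio was lower, at 1.44, for H4 (14 ± 0.661 to 20.1 ± 1.73). For these 4 types the libraries of the groups did not overlap. H3 went from 4.26 ± 0.849 to 5.52 ± 1.1 CPM, a ratio of 1.29, and its groups did overlap.

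**Figure D3:**
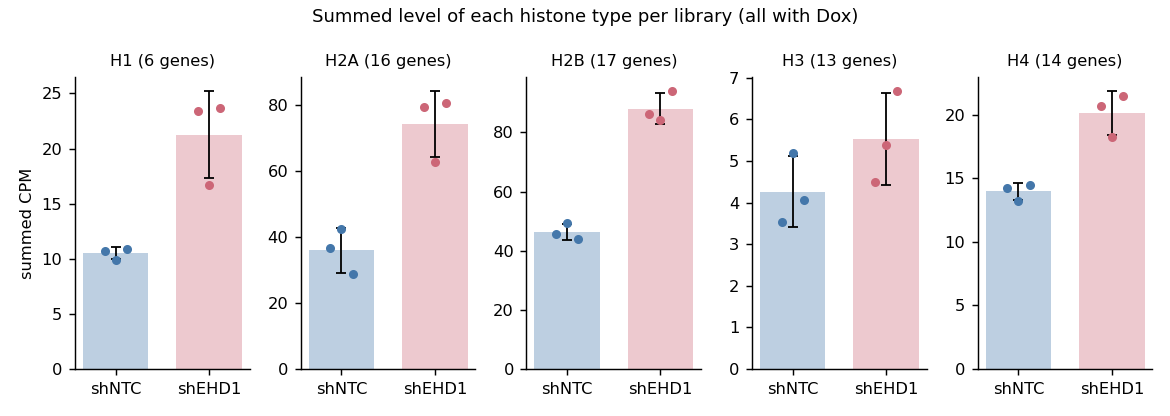
Summed CPM of all genes of each histone type, with 1 point per library, bars at the mean and error bars of 1 SD (n = 3; each panel has its own axis from 0). The shEHD1+Dox points are above the shNTC+Dox points for H1, H2A, H2B and H4, and they overlap for H3.

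The size of the rise was compared between pairs of the called genes, as the ratio of their levels in each library. The ratio of H2BC5 to H2BC12 was 0.516, 0.711 and 0.441 in the controls against 0.95, 0.824 and 0.911 after knockdown, without overlap. The log2 ratio differed by 0.71 between groups, with an exact two-sided permutation p of 0.1, the smallest that 3 against 3 libraries allow, and of 0.333 after adjustment over 5 such ratios. The ratio of H2AC6 to H2BC12 was 1.27, 1.55 and 0.849 in the controls and 2.01, 1.45 and 1.87 in the knockdown libraries, which overlap (exact permutation p = 0.2). The ratio of H4C9 to H2BC12 was nearly level across libraries, at 0.252, 0.241 and 0.28 and then 0.273, 0.236 and 0.262. Those of H1-2 to H2BC12 and of H2BC4 to H2AC6 overlapped between the groups as well. The 5 ratios were chosen after the values of these genes had been seen, and with 3 libraries a group the exact test could not have passed 0.05 for any of them.

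The members lie on chromosome 6 (55 genes) and chromosome 1 (11 genes). The block at chr6:25723397-26285638 held 34 genes, of which 7 were tested and 4 were called (H1-2, H2AC6, H2BC4 and H2BC5). Of the 5 genes at chr6:27125897-27147562, 4 were tested and 2 were called (H2BC12 and H4C9). The third block, chr6:27807479-27893891, held 16 genes with 4 tested and 1 called (H2BC15). On chromosome 1, at chr1:149782689-149887965, 8 of 11 genes were tested and none was called by edgeR or DESeq2. In edgeR, 2 of the 8 genes (H4C14 and H4C15) had an unadjusted p under 0.05, as did the sum of H3C14 and H3C15 (0.0474). The 8 include 3 sets of near-identical copies, H2AC18 with H2AC19, H3C14 with H3C15 and H4C14 with H4C15.

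Many members start back to back and share the DNA between their starts. There were 13 such pairs within 1000 bases, with 169 to 978 bases between the starts. All joined an H2A with an H2B gene except H3C7 with H2BC9, 978 bases apart, and H3C12 with H2BC17, 318 bases apart. H2BC4 and H2AC6 start 218 bases apart, and both rose. In the other pairs with a called gene the partner had few counts. After poly(A) selection, a low count does not show that a gene was not transcribed. H2BC12 had 4853 counts and H2AC12, which starts 250 bases away, had 10. H2BC15 had 737 counts and H2AC15 had 1. H2BC11 and H2AC11, 247 bases apart, had 244 and 573 counts, and neither was called.

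**Figure D4:**
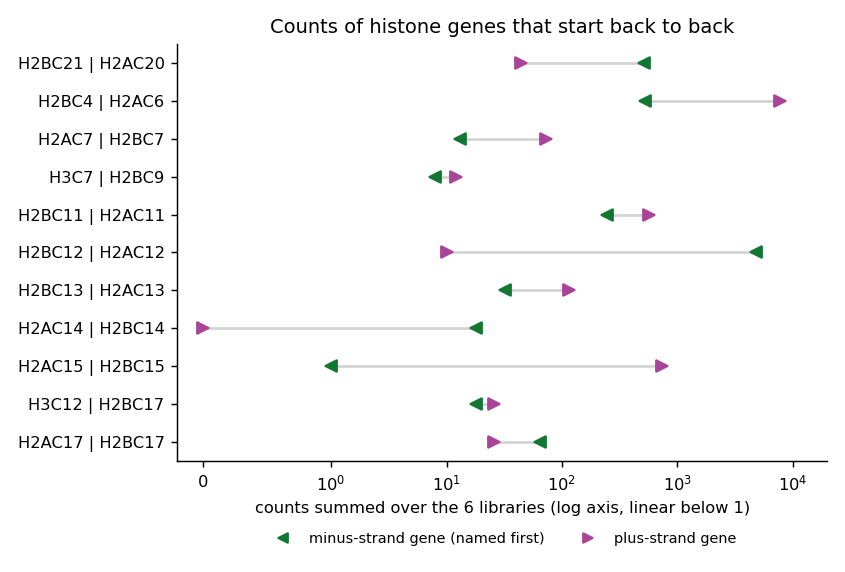
Counts summed over the 6 libraries (log axis, linear below 1) for the 11 back-to-back pairs with a count, with the minus-strand gene named first and its triangle pointing left. H2BC12 and H2BC15 have 4853 and 737 counts while their partners have 10 and 1.

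RefSeq promoters, from 250 bases before to 50 bases after the start, were found for 61 of the 66 genes on GRCh38.p14. The letters CCAAT, read on either strand, were present in 52 of the 61 (85.2%) and in 35.7% of all 27305 promoters. The TATA motif searched (TATAAA) was in 67.2% of the members' promoters and 12% of all. An octamer of the letters ATTTGCAT was in 42.6% and 1.8%. The octamer is the site of OCT1 that H2B promoters are known for. It was present in 14 of 17 H2B and 11 of 15 H2A promoters, in 1 of 11 H3 promoters, and in none of the 6 H1 or 12 H4 promoters. All 7 called genes held the first of these motifs, 4 the second and 3 the octamer. For the octamer, 3 of 7 called genes was near the 42.6% of all members with a promoter. The octamer matches of H2AC6 and H2BC4 are the same site, between their starts. TATAAA was also counted on either strand and at any position. The only match of H2BC4 is the TATAAA of H2AC6 read on the reverse strand. Only exact matches of the letters were counted. The 250 bases before the starts of H2AC6 and H2BC12 are shown. The first is shared with H2BC4, which also rose, and the second with H2AC12, which had few counts. Capitals mark the 3 motifs on either strand, and matches may overlap.
H2AC6, chr6:26123922-26124171, plus strand: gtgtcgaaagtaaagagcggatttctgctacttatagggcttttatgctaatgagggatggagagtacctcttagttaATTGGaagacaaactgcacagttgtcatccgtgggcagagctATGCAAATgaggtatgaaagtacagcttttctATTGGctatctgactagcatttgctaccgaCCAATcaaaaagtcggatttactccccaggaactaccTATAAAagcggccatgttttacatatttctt
H2BC12, chr6:27146859-27147108, minus strand: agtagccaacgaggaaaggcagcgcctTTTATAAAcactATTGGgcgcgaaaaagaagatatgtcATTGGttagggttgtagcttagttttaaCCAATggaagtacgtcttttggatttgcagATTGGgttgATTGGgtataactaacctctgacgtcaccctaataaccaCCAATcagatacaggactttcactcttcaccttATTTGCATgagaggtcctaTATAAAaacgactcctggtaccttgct
In the order above, the stretch beside H2AC6 held 3, 1 and 1 matches of the motifs, and that beside H2BC12 held 6, 3 and 1. A match of letters does not show that a factor bound there.

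How each transcript ends bears on what poly(A) selection keeps. An annotated transcript running more than 100 bases past the stem-loop, called here a longer form, existed for 13 genes, of which 12 were tested and 4 rose (H2AC6, H2BC4, H2BC5 and H2BC15). Summed, they went from 61, 71.4 and 49.4 CPM to 133, 112 and 142, a ratio of 2.13. The 48 genes with a stem-loop and no longer form went from 47.6, 45 and 49.9 CPM to 75.9, 71 and 81.5, a ratio of 1.60, with 10 tested and 3 risen (H1-2, H2BC12 and H4C9). Most counts of these 48 came from H2BC12 and H1-2, with 4853 and 2549 over all libraries. H2BC12 and H1-2 are described as making tailed forms too, so this set does not stand for genes that end only at the stem-loop. Both sets were higher in each knockdown library than in any control. A list of genes described as making tailed forms (H1-2, H2AC6, H2BC4, H2BC5, H2BC12 and H2BC21) held 75.8% of member counts and went from 79.5 ± 9.11 to 163 ± 15.2 CPM, with 5 of 6 risen. Outside that list, the 60 other genes went from 31.6 ± 1.58 to 46.3 ± 5.15 CPM, a ratio of 1.47, with 2 of 17 tested genes risen (H2BC15 and H4C9). The share that rose among all genes tested was 8.59%, near that of these 17. Which form of each transcript was present was not tested.

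Other RNAs without a tail were lower or did not pass the test. Of 23 such RNAs (small nuclear, small nucleolar, Y, vault and polymerase III RNAs), 4 were tested, none rose and 2 fell, against 8.59% and 8.75% of all genes. RN7SL1 and RN7SL2, the RNA of the signal recognition particle, fell by 1.69 and 2.83 on the log2 scale (edgeR adjusted p = 0.00908 and 0.00435). The list summed to 9.26, 8.69 and 4.11 CPM in shNTC+Dox against 2.24, 1.84 and 2.81 in shEHD1+Dox. The part that the efficiency of poly(A) selection had in the histone values was not tested.

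The genes that make and process histone mRNA were taken next. Of 13 genes of histone mRNA transcription and processing, none rose and 2 fell, where 8.75% of all genes fell. SLBP, which is also on the S phase list, had 109, 108 and 141 CPM in shNTC+Dox against 75.4, 91 and 79.9 in shEHD1+Dox (log2 fold change -0.54 ± 0.12 SE, edgeR adjusted p = 0.0156). CASP8AP2, a protein of the histone locus body, had 71.7, 61.7 and 64.3 CPM and then 40.6, 54.8 and 39.9 (-0.55 ± 0.13, edgeR adjusted p = 0.0207). Both lost their call when replicate 1 or 3 of shEHD1+Dox was left out, which brought the number that fell to 0, and CASP8AP2 also without replicate 1 of shNTC+Dox. NPAT, the coactivator of histone gene transcription, had 42.1, 43.7 and 42.9 CPM and then 36.3, 42.6 and 36.2, which overlap (-0.16 ± 0.08, edgeR adjusted p = 0.22).

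Histone chaperones carry new histones to DNA. Of 22 tested, 5 fell and none rose, where 8.75% of all genes fell. The number that fell was 3 with a replicate block and 2 when replicate 1 or 3 of shEHD1+Dox was left out. CHAF1A, the large subunit of the chromatin assembly factor CAF-1, fell by 0.74 ± 0.16 on the log2 scale, UBN1 of the HIRA complex by 0.63 ± 0.08, and TONSL by 0.61 ± 0.13, with edgeR adjusted p of 0.0205, 0.00194 and 0.0171. CHAF1A lost its call with the block (adjusted p = 0.0515 in edgeR) and, like TONSL, without replicate 1 or 3 of shEHD1+Dox, whereas UBN1 kept it in these settings. Among the variant histones tested none rose, and H2AZ2 fell from 183 ± 30.4 to 140 ± 4.78 CPM (-0.39 ± 0.11 SE, edgeR adjusted p = 0.0405). This call did not hold when library totals replaced TMM, with a replicate block, or with any of the shEHD1+Dox libraries left out. The variant list summed to 2255 ± 104 CPM in shNTC+Dox and 1973 ± 9.94 in shEHD1+Dox.

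Genes of S phase, the part of the cycle in which histone genes are transcribed, were lower. Of 40 such genes 19 fell and none rose, where 8.75% of all genes fell, and their median log2 fold change was -0.44. CCNE2, the cyclin E2 of S phase entry, had 21.2, 18.7 and 34.8 CPM in shNTC+Dox against 7.23, 13.8 and 9.23 in shEHD1+Dox (-1.30 ± 0.31 SE, edgeR adjusted p = 0.0307). E2F1, the factor that switches on S phase genes, went from 62.9, 56.9 and 87.7 CPM to 29.7, 38.1 and 29.8 (-1.09 ± 0.17, edgeR adjusted p = 0.00582), and UHRF1 fell by 1.08 ± 0.28 (edgeR adjusted p = 0.0483). In all 3, replicate 3 of shNTC+Dox was the highest library. CCNE2 kept its call in 7 of 12 alternatives and UHRF1 in 4 of 12, and both lost it with a replicate block and with no filter. Without shEHD1+Dox replicate 3 their edgeR adjusted p was 0.1 and 0.129. The number of S phase genes that fell was 12 with the block, and it was 8 or 7 when replicate 1 or 3 of shEHD1+Dox was left out. No gene of the S phase, chaperone, variant, processing or untailed lists was higher at an unadjusted p under 0.05 in edgeR or was called higher by DESeq2. Of 21 genes of G2 and mitosis, 5 rose and 2 fell, where 8.59% of all genes rose and 8.75% fell. CCNB1 and CCNB2, the mitotic B cyclins, rose by 0.38 ± 0.08 and 0.38 ± 0.09 on the log2 scale (edgeR adjusted p = 0.0151 and 0.0209). NUSAP1 fell by 0.39 ± 0.08 (edgeR adjusted p = 0.013). With a replicate block 4 rose and 1 fell, and CCNB2 was not called (adjusted p = 0.0511 in edgeR). The number risen was 0 without shEHD1+Dox replicate 1 and 11 without shNTC+Dox replicate 3.

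Library by library, the S phase genes summed to 4790, 4627 and 6080 CPM in shNTC+Dox against 3382, 4190 and 3557 in shEHD1+Dox, while the histone genes summed to 111, 120 and 102 and then 214, 187 and 226. Replicate 3 of shNTC+Dox had the most S phase transcripts and the fewest histone transcripts of all libraries, and among the knockdown libraries replicate 2 had the most of the former and the fewest of the latter. The order of libraries in the histone sums was the reverse of that in the S phase sums, except that replicates 1 and 3 of shEHD1+Dox changed places. The part that the share of cells in S phase had in the histone values was not tested.

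**Figure D5:**
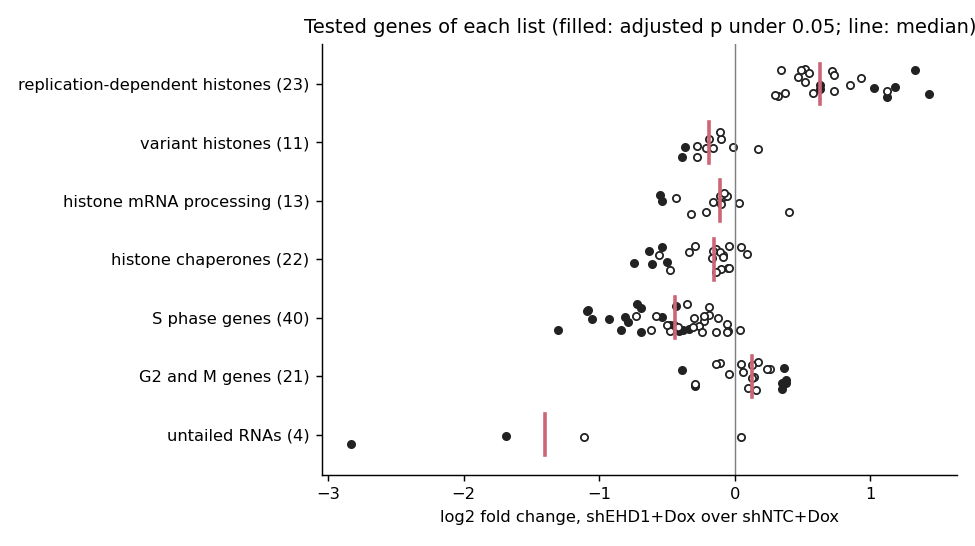
Log2 fold change of the tested genes of each list (number in parentheses), filled where the adjusted p was under 0.05, with a line at the median. The histone genes lie above 0 with a median of 0.63, and the S phase genes have a median of -0.44.

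Read assignment limits some of these values. The read-length words (75 bases) of 37 genes occurred in no other gene, among them those of H1-2, H2AC6 and H4C9, while 9 genes shared at least 90% of theirs. The exons of 10 members, 6 of them tested, overlap those of another gene. H2BC12 shared 39% of its words, 33% with H2BC12L. H2BC4 shared 25.9%, with 14.9% in ENSG00000291336 and 11% in HFE. Those genes overlap H2BC4 on the opposite strand, which these unstranded reads cannot separate. When members sharing any word with each other were summed, the unit of 8 H2B genes that holds H2BC4, H2BC5, H2BC12 and H2BC15 had 1128, 1233 and 928 counts in shNTC+Dox against 2290, 1957 and 2741 in shEHD1+Dox (log2 fold change 0.95 ± 0.07 SE, edgeR adjusted p = 1.89e-04). Genes outside the rule, such as H2BC12L and HFE, were not in these sums. The effect of the sequence that H2BC12 and H2BC4 share with them was not tested.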

How the data were processed

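RNA-seq was analyzed for 6 libraries of TC71 cells. The authors made poly(A)-selected, unstranded TruSeq libraries. Their methods name hisat2 and StringTie on hg38 with Ensembl annotations, whereas the submitters' processing notes name STAR 2.7.3a and DESeq2. The deposited values are whole-number counts per gene. How reads fitting several genes were counted, and the Ensembl release, are not given in the sources used here.

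Counts were normalized by TMM and tested with edgeR 4.0.16 (glmQLFit, robust, glmQLFTest) in R 4.3.3 over 16785 genes that reached 10 counts in 3 or more libraries. P-values were adjusted by Benjamini-Hochberg over all of them, and a gene was called where the adjusted p fell below 0.05, with 2-fold as a second threshold. The tests were checked on simulated data. CPM and RPKM were computed from the counts, the latter with exon lengths of GENCODE v44, in which 64 members matched by identifier and 2 by symbol. The members and lists were chosen with earlier results of these data known, and the lists were written from general knowledge. Named genes were the 3 highest per histone type by RPKM, called members, the tailed-form list, copies, SLBP, NPAT, CASP8AP2, EHD1, and the 3 largest called changes of each other list; members outside this rule were named after their values were seen. Alternatives were DESeq2 size factors, library totals, other filters, the DESeq2 1.42.0 Wald test, a replicate block, each library left out, a prior count of 0.5 and summed copies. A gene that this rule names is not reported here.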

Additional observations from a re-analysis of the deposited data

How the results depend on the processing

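The 7 calls held, as the same 7 genes, with DESeq2 size factors in edgeR, library totals, no filter, 10 counts in every library, the DESeq2 Wald test and, in an alternative chosen after seeing the data, with members sharing 90% of their words summed. No member fell in any setting. With a library left out, the number of members called ran from 5 to 7, and the number called at 2-fold from 3 to 5. H4C9 was lost without shNTC+Dox replicate 1 or 2 or shEHD1+Dox replicate 1 or 3, and H2BC15 without shEHD1+Dox replicate 3. The number at 2-fold was 3 without shNTC+Dox replicate 2 and 3 without shEHD1+Dox replicate 3. Summing members that share any word left 4 of 15 units called, and 2 at 2-fold, since the called H2B genes then form 1 unit. The replicate block gave 7 calls and 5 at 2-fold and changed no member's call; libraries with the same number correlated at 0.072, -0.0593 and -0.0448 in their deviations from the group means, so the numbers were not taken as a pairing, and not every library correlated best with its own number. A prior count of 0.5 moved the mean log2 CPM of H1-6, H3C4, H4C11 and H4C12 by more than their spread. Of the other values checked, 505 were rated the same, 32 moved and 50 kept their direction and lost their call. For counts of called list genes, the same allowed some shift. The S phase genes that fell numbered 19 in the main test, 13 without shNTC+Dox replicate 1 and 27 with the DESeq2 Wald test, all rated the same. The 43 members under the filter had too few counts for a test of their own, and H4C11 and H4C12 were tested only as a sum.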

Other observations

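Outside the histone genes, the 5 genes whose log2 CPM followed the summed histone level most closely over the 6 libraries were CD36, a fatty acid transporter (Pearson r = 0.997), IMMP2L (0.997), PHYH, a peroxisomal enzyme of phytanic acid breakdown (0.996), MKRN2 (0.996) and ANKRD46 (0.996). All 5 rose in shEHD1+Dox, CD36 by 3.40 ± 0.32 SE on the log2 scale at a mean of 2.03 CPM (edgeR adjusted p = 4.34e-04) and PHYH by 0.92 ± 0.12 at 18.3 CPM (edgeR adjusted p = 0.00194). The libraries form 2 groups that differ in both measures, and 1307 of the 16762 genes outside the list had r of at least 0.9, so these values describe likeness of profile only.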
